A study of Mus musculus with 7 samples.

Results

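The miR-30 family arms are the 5p and 3p mature microRNAs (miRNAs) cut from the miR-30 hairpins. The members were the 10 names mmu-miR-30a-5p, mmu-miR-30b-5p, mmu-miR-30c-5p, mmu-miR-30d-5p, mmu-miR-30e-5p, mmu-miR-30a-3p, mmu-miR-30c-1-3p, mmu-miR-30c-2-3p, mmu-miR-30d-3p and mmu-miR-30e-3p, taken by name from a table of 950 miRNAs and written here without the mouse prefix. Flag-tagged Ago2 was pulled down and its small RNAs were sequenced, by anti-Flag immunoprecipitation from Argonaute-null mouse embryonic stem cells grown on gelatin. The 7 libraries, 1 for each of 7 groups, came from wild-type Ago2, from 2 loop mutants (GKT_GKGT, PGKTP_AAAAA), from 3 others (Q548A, K566A, R792A_C793A), and from an empty control. The series' design text gives the Argonaute-null background for wild type and mutants alike. The promoter of the tagged Ago2 and the number of clones per group were not given in the sources used here. Since each group is 1 library, there is no replicate error and no p-value, and each comparison is of 2 libraries.

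A miRNA hairpin is cut to a duplex of a 5p and a 3p strand, and Argonaute keeps 1 of these strands as its guide. The MID domain of Ago2 holds the 5′ end of the guide. K566 and Q548 belong to that pocket. GKT_GKGT and PGKTP_AAAAA alter a MID loop next to the first base of the guide, while R792A_C793A alters a pair of PIWI residues. By its title, the series asks what mammalian Argonautes contribute to the asymmetry between strands. The miR-30 family is a broadly expressed vertebrate family whose 5p strands share a seed, the bases that pair with targets, and whose 3p strands are usually regarded as the passengers.

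RefSeq (GRCm38.p6) holds the mature sequence of 7 of the 10 members, which are shown because the arms differ at their 5′ ends and because some members are almost identical. Capitals mark the seed, bases 2 to 8.
miR-30a-5p: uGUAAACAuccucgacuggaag
miR-30c-5p: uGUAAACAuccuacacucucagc
miR-30e-5p: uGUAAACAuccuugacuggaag
miR-30a-3p: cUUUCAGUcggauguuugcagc
miR-30e-3p: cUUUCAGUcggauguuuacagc
miR-30c-1-3p: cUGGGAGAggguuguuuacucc
miR-30c-2-3p: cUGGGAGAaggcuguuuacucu
The 3 5p arms begin with U and share the seed GUAAACA. The 4 3p arms begin with C and fall into 2 seed groups, UUUCAGU for miR-30a-3p and miR-30e-3p and UGGGAGA for both miR-30c 3p arms. Counted from the 5′ end, miR-30a-5p and miR-30e-5p differ only by C13U, and miR-30a-3p and miR-30e-3p only by G18A. The miR-30c-2-3p and miR-30c-1-3p arms differ by A9G, C12U and U22C. The counting of reads with a mismatch or several matches was not given in the sources used here, and a split of reads between such near-identical arms is uncertain.

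The hairpins of miR-30a and miR-30c-1 are shown with both arms in capitals, since the arm ratio is the quantity most of the results turn on.
Mir30a: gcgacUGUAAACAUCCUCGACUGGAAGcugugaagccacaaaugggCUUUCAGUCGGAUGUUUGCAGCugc
Mir30c-1: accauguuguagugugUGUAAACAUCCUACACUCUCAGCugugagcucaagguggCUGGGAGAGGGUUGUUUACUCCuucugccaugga
In the minimum free energy fold, all 4 bases at the 5′ end of each miR-30a arm and of each miR-30e arm were paired, with 1 G-C pair at each end. In miR-30c-1 and in miR-30c-2, 3 of the first 4 bases of the 5p arm were paired with 1 G-C pair, against 4 bases with 2 G-C pairs for the 3p arm.

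The members lie in 3 clusters (positions in mm9, as deposited). On chromosome 1, miR-30a-5p is at 23279113 to 23279134 and miR-30a-3p at 23279154 to 23279175, with miR-30c-2-3p at 23298593 to 23298614. On chromosome 4, miR-30c-1-3p is at 120442151 to 120442172, with miR-30e-3p at 120445223 to 120445244 and miR-30e-5p at 120445265 to 120445286. On chromosome 15, miR-30b-5p is at 68169031 to 68169052, miR-30d-3p at 68172779 to 68172800 and miR-30d-5p at 68172819 to 68172840. The miR-30c-5p sequence is encoded at 23298553 to 23298575 on chromosome 1 and at 120442189 to 120442211 on chromosome 4. Its 2 loci held nearly the same counts (20766 and 20765 in wild type), so it was counted once and cannot be assigned to either hairpin. By gene name in GENCODE, Mir30c-1 and Mir30e lie in an intron of Nfyc, which encodes a subunit of the transcription factor NF-Y. Mir30c-2, Mir30b and Mir30d overlap exons of the unnamed transcripts Gm27028, Gm26621 and Gm20732. Mir30f is annotated on the strand opposite Mir30e, and whether counting used strand was not given in the sources used here. If counting ignored strand, reads from Mir30f and from miR-30e cannot be told apart in these counts.

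Library totals ran from 14914048 counts in K566A to 94842507 in wild type, and the empty control held 33461 counts. Values are counts per 1000000 of these totals (CPM), with exact Poisson 95% intervals that cover counting error only. The 24 stem cell markers (the miR-290 to miR-295, miR-302 and miR-367 arms) took between 73.3% and 80.05% of counts in each library other than K566A, where they took 59.7%. The 12 fibroblast markers summed to between 1372 and 3198 CPM in the same libraries and to 9217 CPM in K566A, with 10 to 12 of the 12 having counts in each library. The part these RNAs have in the K566A values was not tested. Since 1 miRNA, miR-292-5p, took 63.7% of wild-type and 21.7% of K566A counts, every ratio in CPM depends on it, while ratios within a hairpin do not.

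In wild type the family was a small part of the bound RNA, and the 5p arms made up most of it. The members together were 0.0855% of the library. The 5p members summed to 606 CPM and the 3p members to 249 CPM, so 29.1% of the members' counts (Wilson 95% interval 28.8 to 29.4) were from 3p arms. Among 5p arms, miR-30d-5p had 275 CPM, miR-30c-5p 219 CPM, miR-30a-5p 62.5 CPM, miR-30e-5p 40.6 CPM and miR-30b-5p 9.31 CPM. Among 3p arms, miR-30c-2-3p had 128 CPM, miR-30e-3p 58.5 CPM, miR-30a-3p 46.6 CPM, miR-30c-1-3p 14.6 CPM and miR-30d-3p 1.24 CPM. The members are 22 or 23 nt long, so these levels are per near-equal length. Each neighbour in both orders differed beyond counting error. In the 5 mutants this also held except for miR-30d-5p and miR-30a-5p in K566A (143 and 139 CPM, ratio 1.04, interval 0.974 to 1.10). The most abundant member, miR-30d-5p, ranked 89 among all miRNAs in wild type.

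**Figure D1:**
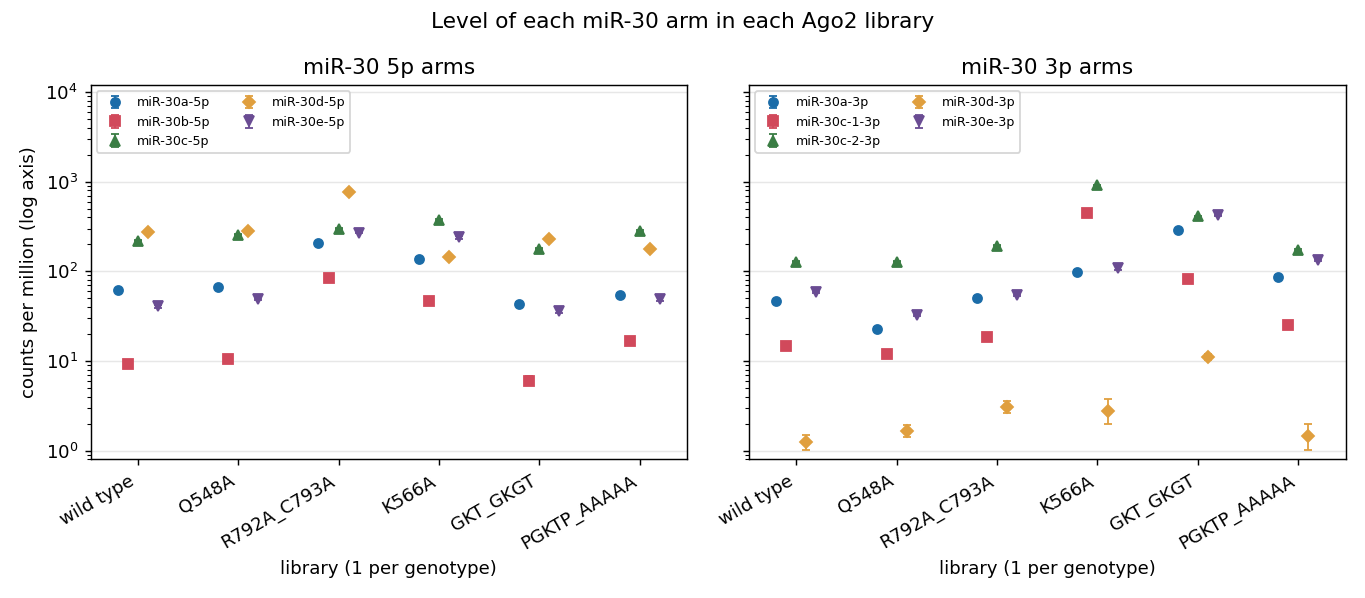
CPM (log axis) of the 5 miR-30 5p arms (left) and the 5 3p arms (right) in the 6 Ago2 libraries, 1 per genotype; bars are exact Poisson 95% intervals. The 3p arms sit highest in K566A or GKT_GKGT, and 4 of the 5 5p arms are higher in R792A_C793A than in wild type by more than 2-fold.

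The 3p share of the family separated the libraries widely. It was 29.1% in wild type, 23.0% in Q548A, 16.4% in R792A_C793A, 42.04% in PGKTP_AAAAA, 62.3% in K566A and 71.2% in GKT_GKGT. The widest of these 6 Wilson intervals, in PGKTP_AAAAA, ran from 41.4% to 42.7%. No interval overlapped another, but they cover counting error only, and no such share over all hairpins is given here. The share includes miR-30b-5p and leaves out miR-30b-3p, which is no member of the set. K566A and GKT_GKGT bound more 3p than 5p counts of the family, and the other 4 bound more 5p.

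In GKT_GKGT the 3p arms were higher and the 5p arms stayed near their wild-type level. The miR-30e-3p level was 58.5 CPM in wild type, 32.6 in Q548A, 54.7 in R792A_C793A, 108 in K566A, 424 in GKT_GKGT and 134 in PGKTP_AAAAA, so GKT_GKGT stood above every other Ago2 library. Its ratio to wild type was 7.24 (exact conditional 95% interval 7.02 to 7.45). The miR-30a-3p level was 46.6 CPM in wild type, 23.03 in Q548A, 50.6 in R792A_C793A, 99.6 in K566A, 287 in GKT_GKGT and 87.2 in PGKTP_AAAAA, a ratio of 6.15 (5.95 to 6.37) in GKT_GKGT. These 2 arms, which differ by 1 base, thus had like profiles over the 6 libraries.

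The 3p arms of miR-30c were higher too, by unequal factors. The miR-30c-1-3p ratio was 5.65 (5.31 to 6.01) and the miR-30c-2-3p ratio 3.22 (3.15 to 3.30). A call here means an interval wholly above 2 or below 0.5, for miRNAs whose average over the 6 Ago2 libraries reached 10 CPM, which 9 of the 10 members and 337 of the 950 miRNAs passed. All 4 tested 3p members were called higher in GKT_GKGT and 0 of 5 5p members were called in either direction, where 11.0% of all tested miRNAs were called higher and 11.9% lower. With median-of-ratios scaling the members' counts were again 4 and 0, against 12.5% and 8.31% of all. The median log2 ratio of the 4 3p arms was 2.56, against -0.29 for all tested miRNAs. The 5p arms lay between -0.62 (miR-30b-5p) and -0.18 (miR-30e-5p), with a median of -0.29. The arm that missed the level minimum, miR-30d-3p (mean 3.54 CPM), had 118 counts in wild type and 549 in GKT_GKGT, a ratio of 8.89 (7.27 to 10.9). The miR-30b-3p arm, which passed the minimum but is no member of the set, had a ratio of 1.51 (1.36 to 1.67) and was not called.

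Within hairpins, where library size cancels, the same library gave 3p shares above wild type in all 6 hairpins. The 3p arm took 59.0% of miR-30e counts in wild type and 92.2% in GKT_GKGT. The change in log2(3p/5p) was 3.03 (95% interval 2.94 to 3.13). For miR-30a the share went from 42.7% to 86.9% (3.15, 3.06 to 3.24). In miR-30d, the hairpin with the lowest 3p share, it went from 0.451% to 4.61% (3.41, 3.12 to 3.72). Set against their joint 5p arm, the shares went from 6.27% to 31.6% for miR-30c-1 (2.79) and from 36.9% to 69.7% for miR-30c-2 (1.98). For miR-30b, whose 3p arm is no member of the set, the share was 49.6% in wild type and 69.6% in GKT_GKGT (1.22, 0.97 to 1.46), an interval not wholly past 2-fold. Of the 6 ratios 5 were called higher, where 20.4% of all hairpins with counts were called so and 12.6% lower. Of 32 other tested hairpins with a U-first 5p and a C-first 3p arm, 21 were called higher and 0 lower. All ratios to wild type, in each mutant, share the same wild-type library.

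**Figure D2:**
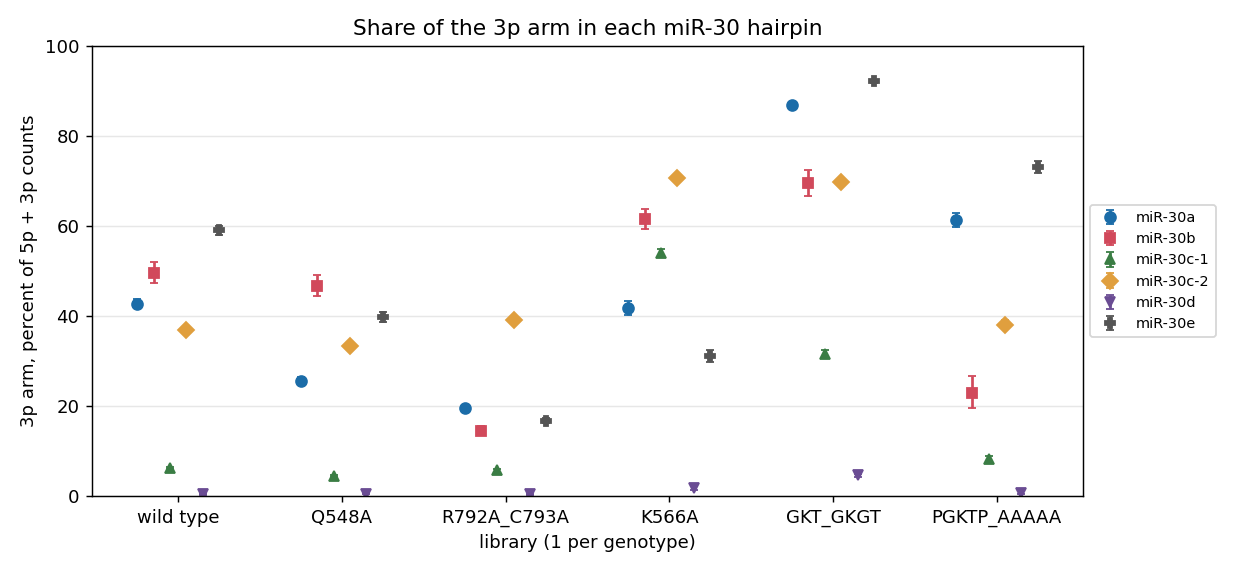
Percent of the 5p and 3p counts of each miR-30 hairpin that came from the 3p arm, in the 6 Ago2 libraries, 1 per genotype; bars are Wilson 95% intervals, and miR-30c-1 and miR-30c-2 share 1 5p arm. In GKT_GKGT all 6 hairpins lie above wild type. In R792A_C793A miR-30a, miR-30b and miR-30e lie at 19.6%, 14.6% and 16.8%, against 42.7%, 49.6% and 59.0% in wild type. The miR-30c-1 and miR-30d hairpins lie below 20% in both wild type and R792A_C793A.

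In PGKTP_AAAAA, the second loop mutant, the 3p arms moved less. The only member called was miR-30e-3p, with a ratio of 2.30 (2.20 to 2.40), where 7.12% of tested miRNAs were called higher and 33.5% lower. The other tested 3p arms were miR-30a-3p at a log2 ratio of 0.90, miR-30c-1-3p at 0.78 and miR-30c-2-3p at 0.44. The median of all tested miRNAs was -0.55 in this library, and with median-of-ratios scaling, which sets that typical miRNA near 0, 5 members were called higher (all 4 tested 3p arms and miR-30b-5p), and 0 lower, against 16.3% and 16.9% of all. The 3p shares were 61.4% for miR-30a, 73.2% for miR-30e, 8.20% for miR-30c-1 and 38.1% for miR-30c-2. None of these 4 changes was called, where 56 of 351 hairpins (16%) were called higher: for miR-30a it was 1.09 (0.98 to 1.20) and for miR-30c-2 0.08 (0.01 to 0.14). The miR-30b hairpin went the other way, from 49.6% to 22.9% 3p (-1.72, -2.06 to -1.40), and was called lower, where 12.5% of hairpins were.

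Set directly against PGKTP_AAAAA, without the wild-type library, GKT_GKGT had the higher 3p share in all 6 hairpins. The differences in log2(3p/5p) were 1.90 for miR-30c-2, 2.06 for miR-30a, 2.11 for miR-30e, 2.37 for miR-30c-1, 2.56 for miR-30d and 2.94 for miR-30b. All 6 were called, where 16.5% of all hairpins were called higher and 34 of 339 (10%) lower. Among 30 other tested hairpins with a U-first 5p and a C-first 3p arm, all 30 differences were above 0 and 18 were called higher. Their median was 2.16, against 2.09 in miR-30a, miR-30c-1, miR-30c-2 and miR-30e, so this difference was not particular to miR-30. In CPM, all 4 tested 3p members of the miR-30 family were called higher in GKT_GKGT, where 25.5% of miRNAs were. They ran from 2.38-fold (miR-30c-2-3p, not called with median-of-ratios scaling) to 3.29-fold (miR-30a-3p). The miR-30b-5p arm was lower (6.04 against 16.6 CPM, ratio 0.365, interval 0.313 to 0.424), where 5.93% were called lower. With median-of-ratios scaling 3 members were called higher and 2 lower (adding miR-30c-5p), against 16.3% and 14.8% of all.

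In R792A_C793A the change was in the 5p arms. The miR-30b-5p level was 9.31 CPM in wild type, 10.7 in Q548A, 85.0 in R792A_C793A, 46.3 in K566A, 6.04 in GKT_GKGT and 16.6 in PGKTP_AAAAA. Its ratio to wild type in R792A_C793A was 9.13 (8.50 to 9.82). The miR-30e-5p level was 40.6 CPM in wild type, 49.4 in Q548A, 271 in R792A_C793A, 239.8 in K566A, 35.9 in GKT_GKGT and 49.3 in PGKTP_AAAAA. Both arms were thus higher in R792A_C793A and K566A than in the other 4 Ago2 libraries. The R792A_C793A ratio of miR-30e-5p was 6.66 (6.43 to 6.90), that of miR-30a-5p 3.31 (3.21 to 3.42) and that of miR-30d-5p 2.80 (2.75 to 2.84). The miR-30c-5p log2 ratio was 0.46 (0.43 to 0.49), near the median of all tested miRNAs, 0.43. Of the 5 5p arms 4 were called higher, also with median-of-ratios scaling, against 15.7% of all tested miRNAs (5.93% with that scaling). No member was called lower with either, against 6.82% (12.8%). The 4 tested 3p arms, with log2 ratios from -0.10 (miR-30e-3p) to 0.60 (miR-30c-2-3p), were not called.

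The hairpin ratios followed in R792A_C793A. The 3p share of miR-30e was 16.8% against 59.0% in wild type (change in log2(3p/5p) -2.83, -2.92 to -2.75). In miR-30b it was 14.6% against 49.6% (-2.53, -2.70 to -2.36), and in miR-30a 19.6% against 42.7% (-1.61, -1.69 to -1.53). These 3 were called lower, where 12.7% of hairpins were, and 0 higher, where 9.67% were. The other 3 hairpins were near wild type, at -0.13 for miR-30c-1, 0.14 for miR-30c-2 and -0.18 for miR-30d. In miR-30d the 5p arm was higher by 1.48 on the log2 scale and the rare 3p arm by 1.31 (0.96 to 1.66), which left the ratio between them close to that of wild type.

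**Figure D3:**
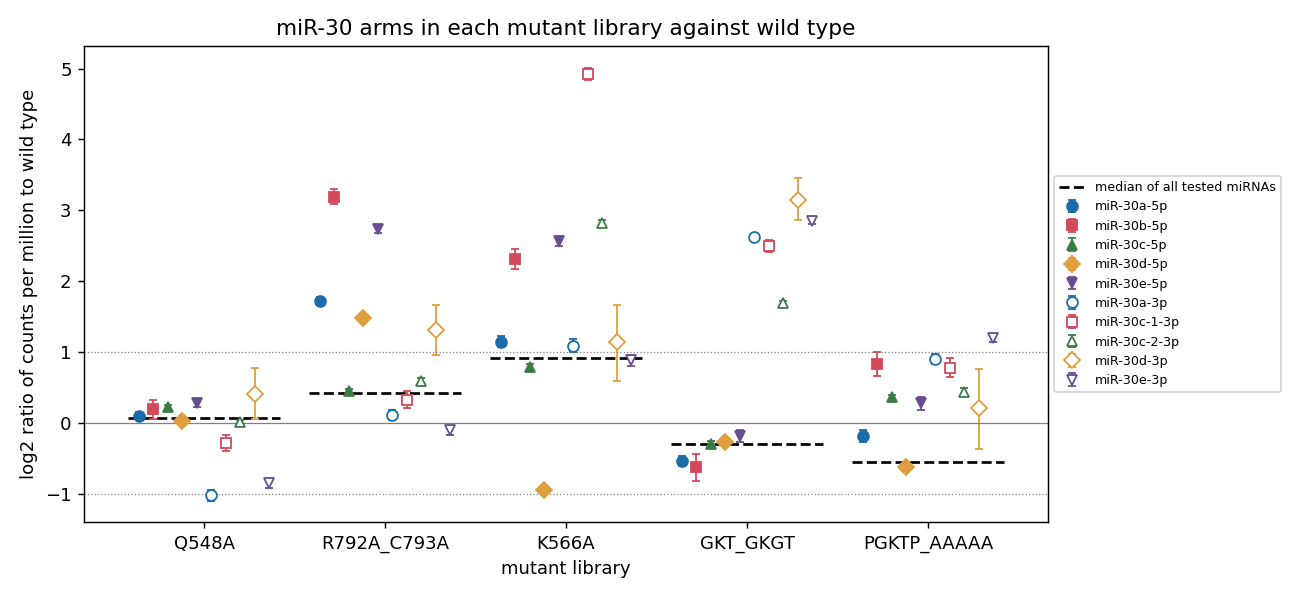
Log2 ratio of CPM in each mutant library to wild type for the 10 miR-30 arms (filled, 5p; open, 3p), with exact conditional 95% intervals; dashed lines give the median of the 337 tested miRNAs and dotted lines 2-fold. Filled points lie high in R792A_C793A, up to 3.19, and open points in GKT_GKGT, while in K566A miR-30c-1-3p stands at 4.93 and miR-30d-5p at -0.94.

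In Q548A no member was called, where 1.78% of tested miRNAs were called higher and 4.45% lower. The 5p arms had log2 ratios from 0.03 (miR-30d-5p) to 0.28 (miR-30e-5p). The 3p arms with the UUUCAGU seed were the lowest: miR-30a-3p was at 23.03 CPM against 46.6 (log2 ratio -1.02, -1.09 to -0.94, called lower with median-of-ratios scaling, as 5.93% of all were, with 1.48% higher), and miR-30e-3p at 32.6 against 58.5 (-0.85). The 3p arms of miR-30c were at -0.29 and 0.01. Within hairpins the 3p share of miR-30a was 25.5% against 42.7% in wild type (-1.12, -1.21 to -1.03), and that of miR-30e 39.7% against 59.0% (-1.13, -1.22 to -1.04). Both were called lower, where 6.91% of hairpins were called lower and 3.31% higher, and the other 4 hairpins were not called. Of 33 other tested hairpins with a U-first 5p and a C-first 3p arm, 6 were called lower and 0 higher. Their median change was -0.89.

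In K566A the arms of some hairpins moved unequally, and these hairpins differed in which arm was the higher against wild type. The median log2 ratio was 1.96 for the 4 tested 3p arms and 1.15 for the 5p arms. The miR-30c-1-3p level was 14.6 CPM in wild type, 12.01 in Q548A, 18.4 in R792A_C793A, 446 in K566A, 82.6 in GKT_GKGT and 25.2 in PGKTP_AAAAA. Its ratio of 30.5 (28.8 to 32.3) was the largest of any member in any mutant, and 99.1% of tested miRNAs had a ratio at or below it. The miR-30c-2-3p level was 128 CPM in wild type, 129 in Q548A, 193 in R792A_C793A, 908 in K566A, 412 in GKT_GKGT and 174 in PGKTP_AAAAA, a ratio of 7.10 (6.92 to 7.27) in K566A. These arms share a seed and differ at 3 bases. Of the Ago2 libraries, K566A was sequenced least and its fibroblast marker sum, 9217 CPM against 2005 in wild type, was the highest.

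The other arms in K566A spread from a lower miR-30d-5p to a higher miR-30e-5p. The miR-30d-5p level was 275 CPM in wild type, 281 in Q548A, 769 in R792A_C793A, 143 in K566A, 229 in GKT_GKGT and 179 in PGKTP_AAAAA. It was highest in R792A_C793A and lowest in K566A, with a K566A ratio to wild type of 0.522 (0.499 to 0.546) that was called lower with median-of-ratios scaling and without miR-292-5p in the total, but not otherwise. In contrast miR-30e-5p had a ratio of 5.90 (5.64 to 6.18) and miR-30b-5p of 4.97 (4.49 to 5.50). The 3p arm of miR-30e, at 0.89, and miR-30c-5p, at 0.79, lay near the median of all tested miRNAs, 0.91. In K566A 6 of 9 tested members were called higher and 0 lower, where 47.5% and 19.6% of all tested miRNAs were. With median-of-ratios scaling 4 were called higher and 1 lower, against 32.9% and 31.5%. The 2 lost calls are those of miR-30a-5p (log2 ratio 1.15) and miR-30a-3p (1.09, which turns to -0.014 without miR-292-5p in the total). The miR-30a-3p call was also lost with summed loci (1.03), which left 5 members called higher. The miR-30c-1-3p, miR-30c-2-3p, miR-30b-5p and miR-30e-5p arms were called higher with each scaling.

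Within K566A hairpins the 3p arm gained on its partner in some and lost in another. Against the joint 5p arm, miR-30c-1-3p went from 6.27% to 54.1% (change in log2(3p/5p) 4.14, 4.05 to 4.24) and miR-30c-2-3p from 36.9% to 70.6% (2.04, 1.98 to 2.09). The 3p share of miR-30e fell from 59.0% to 31.1% (-1.68, -1.78 to -1.57), and that of miR-30a was 41.8% against 42.7% (-0.06, -0.17 to 0.06). In miR-30d it was 1.88% against 0.451% (2.09, 1.53 to 2.61), from 41 counts of the 3p arm in K566A. For miR-30b the share was 61.5% against 49.6% (0.70, 0.51 to 0.89), which was not called. Of the 6 ratios 3 were called higher and 1 lower, where 22.1% and 21.6% of hairpins were. With wild type thinned to the K566A total, miR-30d was no longer called (1.70). In the Nfyc intron, the 3p share of miR-30e thus fell, while miR-30c-1-3p rose against the joint 5p arm. Since that 5p arm cannot be assigned to 1 hairpin, the 3p share of the miR-30c-1 hairpin itself is not known. In CPM the 3p arms of both hairpins were above wild type in K566A. For miR-30e-3p this depended on scaling: its log2 ratio of 0.89 turned to -0.22 without miR-292-5p in the total. The miR-30e-3p arm was at 108 against 58.5 (not called) and miR-30c-1-3p at 446 against 14.6, so that the order of these arms was reversed.

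The make-up of the 5p arms, which share 1 seed where the sequence is at hand, also differed between libraries. The miR-30d-5p arm was 45.3% of miR-30 5p counts in wild type, 42.3% in Q548A, 47.1% in R792A_C793A, 46.4% in GKT_GKGT, 30.8% in PGKTP_AAAAA and 15.2% in K566A. The miR-30c-5p arm held 36.1% in wild type, 48.4% in PGKTP_AAAAA and 18.4% in R792A_C793A. The miR-30e-5p arm held 6.70% in wild type and between 7.27% and 8.47% in Q548A, GKT_GKGT and PGKTP_AAAAA. It held 16.6% in R792A_C793A and 25.3% in K566A. In relation to miR-30a-5p, from which it differs by 1 base, its ratio was 0.650 (0.624 to 0.677) in wild type, 1.31 (1.27 to 1.34) in R792A_C793A and 1.73 (1.64 to 1.83) in K566A. For the 3p arms that also differ by 1 base, miR-30e-3p over miR-30a-3p, it stayed between 1.08 in R792A_C793A and 1.54 in PGKTP_AAAAA. In the chromosome 15 cluster, miR-30b-5p over miR-30d-5p was 0.0339 in wild type, 0.0380 in Q548A, 0.0264 in GKT_GKGT, 0.0925 in PGKTP_AAAAA, 0.111 in R792A_C793A and 0.322 in K566A. Among 3p arms, miR-30c-1-3p made up 28.5% in K566A and between 5.74% and 6.79% in the other 5 Ago2 libraries.

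**Figure D4:**
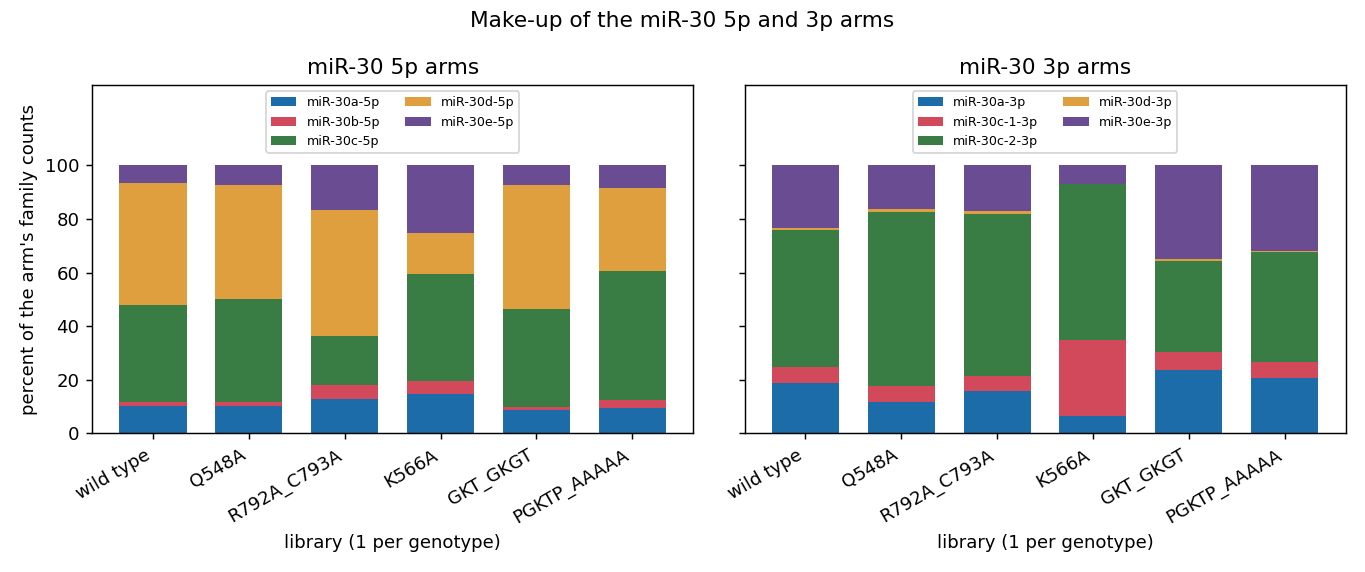
Share of each arm in the summed counts of the 5 miR-30 5p arms (left) and the 5 3p arms (right) in the 6 Ago2 libraries, 1 per genotype; each stack sums to 100%. In K566A miR-30d-5p shrinks to 15.2% of 5p counts and miR-30c-1-3p widens to 28.5% of 3p counts, and in R792A_C793A miR-30c-5p shrinks to 18.4%.

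The miR-30a, miR-30c-1, miR-30c-2 and miR-30e hairpins were set beside the other tested hairpins whose 5p arm begins with U and 3p arm with C. In GKT_GKGT the change in log2(3p/5p) had a median of 2.91 in the 4 miR-30 hairpins (1.98 to 3.15) and of 2.41 in 32 others (0.06 in miR-155 to 4.78 in miR-574). All 4 and all 32 changes were above 0, so the miR-30 hairpins lay within the range of hairpins with the same first bases. In PGKTP_AAAAA the medians were 0.67 and 0.16, and in Q548A -0.82 and -0.89. In R792A_C793A the others ran from -2.96 (miR-106b) to 2.70 (miR-26a-1) with a median of 0.33, and miR-30e (-2.83) and miR-30a (-1.61) lay towards the low end. In K566A the others spread from -5.81 (let-7i) to 6.79 (miR-744), with a median of 0.01. That spread held every miR-30 value, including miR-30c-1 at 4.14. Several hairpins in this set share an arm with another copy.

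**Figure D5:**
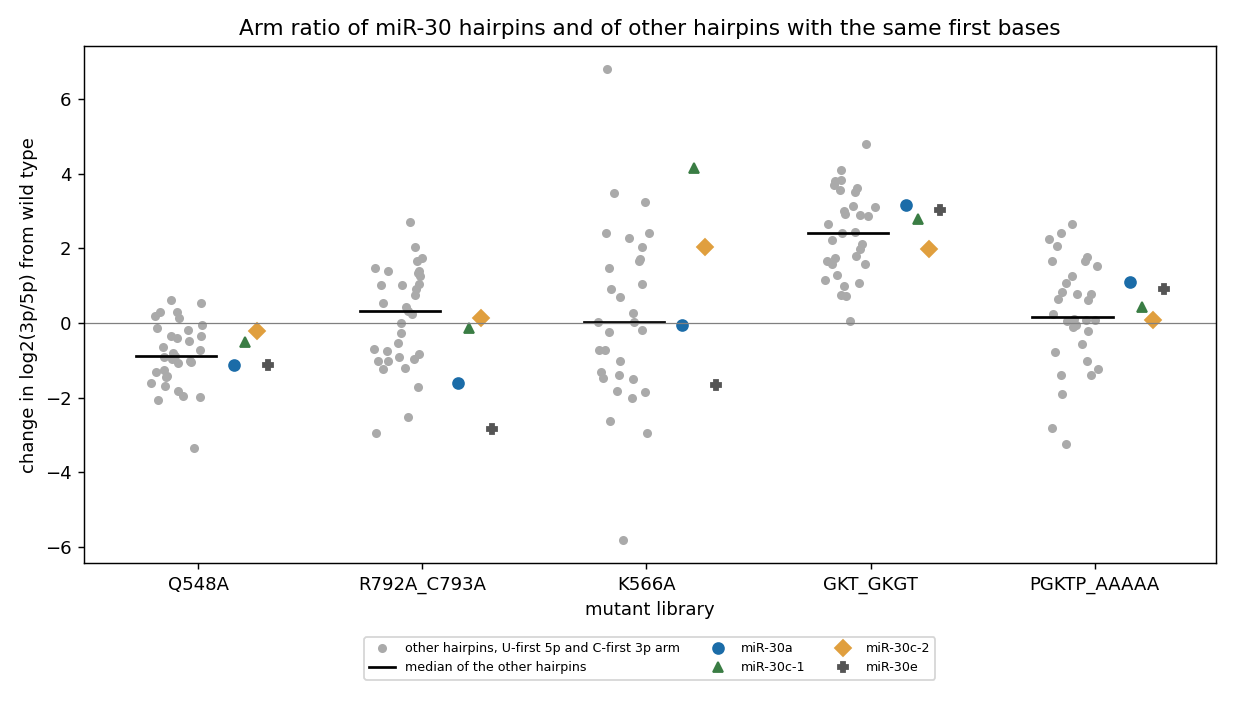
Change in log2(3p/5p) from wild type in each mutant library, for miR-30 hairpins (coloured) and for 31 to 33 other hairpins with a U-first 5p and a C-first 3p arm (grey, spread sideways at random; black line, their median). In GKT_GKGT every point lies above 0, and in R792A_C793A miR-30e and miR-30a lie low among the grey points.

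The let-7, miR-15/16 and miR-200 families were read by the same rule. In R792A_C793A 0 of 8 tested let-7 and miR-98 5p arms and 0 of 3 miR-15/16 5p arms were called higher, against 4 of 5 for miR-30 and 15.7% of all tested miRNAs. The let-7 median log2 ratio was -0.09 and that of the miR-30 5p arms 1.73. In the same library both tested miR-200 5p arms were called higher, miR-200b-5p at 1.34 and miR-200a-5p at 1.52, and 0 of 4 3p arms were. With median-of-ratios scaling 1 of these 5p arms was called higher, against 4 of 5 for miR-30 and 5.93% of all tested miRNAs. In K566A 7 of 8 let-7 and miR-98 5p arms were called higher and 3 of 5 miR-30 5p arms, the latter near the 47.5% of all tested miRNAs. In GKT_GKGT 3 of 3 tested miR-15/16 3p arms were called higher, with a median of 3.07 against 2.56 for the miR-30 3p arms. In the miR-200 family it was the opposite arm: both tested 5p arms were called higher in GKT_GKGT (median 3.14) and 0 of 4 3p arms (median -0.38), where 11.0% of all tested miRNAs were called higher. These differences between families are counts and medians, and no difference was tested.

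By likeness of profile, taken as the root mean square difference in log2 CPM centred on the 6 Ago2 libraries, the closest miRNA outside the family to miR-30d-5p was miR-126-5p (0.31). It was followed by miR-183-5p (0.33), miR-186-5p (0.37), miR-23a-3p (0.42) and miR-222-3p (0.42). The nearest family member to miR-30d-5p, miR-30a-5p, was at 0.77, against a median of 1.18 over all tested miRNAs. Next was miR-30c-5p at 0.86, and the remaining tested members lay above that median, from 1.21 (miR-30e-5p) to 2.35 (miR-30c-1-3p). The closest to miR-30c-2-3p were miR-26b-3p (0.33), miR-25-5p (0.41), let-7d-3p (0.43), miR-20a-5p (0.45) and miR-193b-5p (0.46), with miR-30c-1-3p at 0.83. In RefSeq, miR-183-5p and miR-20a-5p begin with U, miR-186-5p, miR-26b-3p, let-7d-3p and miR-193b-5p with C, and miR-23a-3p, miR-222-3p and miR-25-5p with A. The measure rests on 6 libraries that differ in total.

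The empty control held 37 counts of the family. It had 24 counts of 5p and 13 of 3p arms, so the 3p share of 35.1% (Wilson 95% interval 21.8 to 51.2) overlapped that of wild type, 29.1%. Of the 10 members 9 had counts whose exact Poisson 95% interval held the number given by the wild-type level at this depth. The exception was miR-30e-5p, with 6 counts (2.20 to 13.1) where the wild-type level gives 1.36. For miR-30b-5p, miR-30c-1-3p and miR-30d-3p the wild-type level gives only 0.312, 0.490 and 0.0416 counts, which the interval of a count of 0 holds. The 9 of 10 thus says little about the family, and the same number over all miRNAs is not given here. A count of 0, as for miR-30b-5p, miR-30c-1-3p and miR-30d-3p, has an exact Poisson 95% interval that reaches 3.69 counts, which is 110.2 CPM at this depth, so levels such as 9.31 CPM were not detectable there.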

How the data were processed

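The authors deposited a table of raw counts for 1078 mature miRNA loci in 7 libraries. The submitters' processing notes name CASAVA 1.8.2, TopHat2 2.0.9 and mm9. The counting program, miRNA annotation and read handling were not given in the sources used here. A name with several loci was counted once, by its highest locus, and 9 names whose counts equalled those of another within 1% or 3 counts were merged, which left 950 miRNAs. CPM used the total as library size. Ratios carry exact conditional 95% intervals, as do arm odds ratios (Woolf's where all 4 counts reached 500), with a pseudocount of 0.5 in the estimate. Hairpins needed a sum of 100 counts over the 6 Ago2 libraries, and changes could be computed for 339 to 362 of 402. The ratio calls were tested on simulated counts with known library sizes. For the arm odds ratio only the mean estimate was checked on simulated counts, not its interval or call. Alternatives were median-of-ratios scaling, a total without miR-292-5p, no level minimum, summed loci, calls by the ratio itself, a pseudocount of 5 and thinned wild type. Named miRNAs were all members, their partner arm, the 5 nearest profiles and the extremes of each list. Members and lists were chosen with earlier results of these data known. Python 3.11.15, scipy 1.17.1 and RNAfold 2.7.2 were used.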

Additional observations from a re-analysis of the deposited data

How the results depend on the processing

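Counts of called members changed by over 1.5 times as follows. With median-of-ratios scaling, 1 member was called lower in K566A (0 as reported), 1 lower in Q548A (0), 5 higher in PGKTP_AAAAA (1) and 2 lower in GKT_GKGT against PGKTP_AAAAA (1). Without miR-292-5p in the total, 1 was called lower in K566A and 2 higher in PGKTP_AAAAA, and the miR-30a-3p log2 ratio in K566A turned from 1.09 to -0.014. With calls by the ratio itself, 1 was called lower in Q548A. A ratio within a hairpin does not use library size, and its counts of called members stayed within 1.5 times under summed loci, a pseudocount of 5 and thinned wild type. The other scaling effects follow from the shift each scaling gives every log2 ratio, which with median-of-ratios ran from -0.84 in K566A to 0.62 in PGKTP_AAAAA. No paired analysis was possible because each group has 1 library. Leaving out a library would leave no comparison, and counting error is the only error these intervals hold.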
